A study of Mus musculus with 5 samples.

Results

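Very wide autosomal H2AK119ub domains are called regions of monoubiquitinated histone H2A that span 100 kb or more on chromosomes 1 to 19. They were selected by width alone, as the end minus the start of each region in the authors' deposited list, and 312 of 30089 autosomal H2AK119ub regions (1.04%) met the minimum. The cells were basal epidermal progenitors of control mice carrying the reporters K14-RFP and K10-H2B-GFP, taken from back skin at postnatal day 71 and sorted as Sca1-positive, RFP-high and GFP-negative. The K14 promoter drives its reporter in basal keratinocytes and the K10 promoter in suprabasal keratinocytes, and the labels give neither the sex of the mice nor whether mice were pooled. Chromatin was precipitated for H2AK119ub (2 libraries) and H3K27me3 (2 libraries), and 1 input library was made, each from 5 ng of DNA and read as single reads of 75 nt. One list of regions per mark was deposited, with 33155 H2AK119ub and 15102 H3K27me3 regions and no height, score or replicate column, so read depth and the spread between libraries are unknown. No test was therefore run, and every value below describes these 2 lists.

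Polycomb repressive complex 1 (PRC1) attaches the ubiquitin of H2AK119ub, and Polycomb repressive complex 2 (PRC2) adds the methyl groups of H3K27me3. Canonical PRC1 carries a Cbx subunit that binds H3K27me3, while variant PRC1 carries Rybp or Yaf2 and can ubiquitinate H2A where H3K27me3 is absent. PRC2 with its accessory subunits Jarid2 and Aebp2 can in turn bind H2AK119ub. In the epidermis, Polycomb complexes are known for holding back genes of other lineages, among them Merkel cell genes, and for setting the timing of differentiation.

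Promoters of 6 genes are shown because they stand for the 3 kinds of domain described below: domains without H3K27me3, domains with less than 50% of their bases under it, and domains with 50% or more. The sequences are from RefSeq (GRCm38.p6), run from 250 bases before to 50 bases after an annotated transcript start, and have each CG dinucleotide in capitals. The motif CG reads the same on both strands and was present in 15640 of 16456 autosomal promoters of this length, with a median of 14 per promoter and quartiles of 4 and 25. Tle3, a Groucho-family corepressor (chr9:61372116-61372415, plus strand), lies in the widest domain of all, and its window held 21 CG. Rxra, the retinoid X receptor alpha (chr2:27676951-27677250, plus strand, a start 756 bp inside the annotated gene), held 55 CG. Neither start lay under H3K27me3.
Tle3 promoter: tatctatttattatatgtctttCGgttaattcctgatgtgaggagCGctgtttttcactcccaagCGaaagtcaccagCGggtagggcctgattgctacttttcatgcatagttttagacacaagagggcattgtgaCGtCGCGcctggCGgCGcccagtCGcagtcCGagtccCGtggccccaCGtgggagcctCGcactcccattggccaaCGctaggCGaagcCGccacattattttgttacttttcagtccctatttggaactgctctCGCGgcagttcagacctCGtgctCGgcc
Rxra promoter: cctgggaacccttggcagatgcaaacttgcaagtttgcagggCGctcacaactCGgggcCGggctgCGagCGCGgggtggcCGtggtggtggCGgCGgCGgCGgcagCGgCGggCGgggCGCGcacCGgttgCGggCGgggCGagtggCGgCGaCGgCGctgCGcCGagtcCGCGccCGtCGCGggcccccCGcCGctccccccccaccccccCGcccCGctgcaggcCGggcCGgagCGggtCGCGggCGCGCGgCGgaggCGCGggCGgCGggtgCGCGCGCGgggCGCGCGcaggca
Smad6, an inhibitory Smad of BMP signalling (chr9:64022010-64022309, minus strand), and Lmx1b, a LIM homeobox factor of dorsal limb identity (chr2:33641049-33641348, minus strand), are from domains with 50% or more under H3K27me3. The Lmx1b start lay under an H3K27me3 region and the Smad6 start did not, and their windows held 24 CG for Lmx1b and 31 CG for Smad6.
Smad6 promoter: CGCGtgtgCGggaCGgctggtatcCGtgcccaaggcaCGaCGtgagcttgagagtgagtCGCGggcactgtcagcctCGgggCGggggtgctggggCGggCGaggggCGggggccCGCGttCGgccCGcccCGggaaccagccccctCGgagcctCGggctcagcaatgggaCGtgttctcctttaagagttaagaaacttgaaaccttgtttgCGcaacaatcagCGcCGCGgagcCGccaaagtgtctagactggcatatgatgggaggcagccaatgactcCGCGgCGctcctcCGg
Lmx1b promoter: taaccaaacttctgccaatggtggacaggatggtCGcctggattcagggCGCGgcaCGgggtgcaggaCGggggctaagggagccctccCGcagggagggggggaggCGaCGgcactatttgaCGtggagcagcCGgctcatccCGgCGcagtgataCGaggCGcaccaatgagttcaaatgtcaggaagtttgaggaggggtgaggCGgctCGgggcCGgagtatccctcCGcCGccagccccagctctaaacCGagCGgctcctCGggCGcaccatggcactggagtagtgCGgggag
Krt75, a keratin of the hair follicle companion layer (chr15:101573855-101574154, minus strand), lay under H3K27me3 in a keratin domain with less than 50% of its bases under that mark, and its window held 8 CG. Grhl3, a Grainyhead factor needed for the skin barrier (chr4:135573583-135573882, minus strand), is from a domain with no H3K27me3, and its window held 12 CG.
Krt75 promoter: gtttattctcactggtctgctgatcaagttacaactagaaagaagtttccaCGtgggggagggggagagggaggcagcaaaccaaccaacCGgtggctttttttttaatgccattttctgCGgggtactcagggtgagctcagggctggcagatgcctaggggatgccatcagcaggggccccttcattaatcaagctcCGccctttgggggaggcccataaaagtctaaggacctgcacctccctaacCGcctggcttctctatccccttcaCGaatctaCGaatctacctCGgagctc
Grhl3 promoter: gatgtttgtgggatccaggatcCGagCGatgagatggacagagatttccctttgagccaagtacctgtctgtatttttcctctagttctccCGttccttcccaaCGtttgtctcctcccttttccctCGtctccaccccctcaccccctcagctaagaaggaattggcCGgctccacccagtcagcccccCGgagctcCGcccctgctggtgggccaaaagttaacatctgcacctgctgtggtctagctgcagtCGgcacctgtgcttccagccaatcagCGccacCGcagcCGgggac

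The domains ranged from 100.1 to 581.8 kb in width, with a median of 132.7 kb and quartiles of 112.6 and 161.7 kb, and 39 reached 200 kb. Together they spanned 46.65 Mb, which is 1.92% of the autosomal span of 2430 Mb and 10.9% of all autosomal bases under H2AK119ub. The members nearest to the width minimum held Tcf7l1 (100.1 kb), Irx3 (100.1 kb) and the genes Stk32c, Lrrc27 and Pwwp2b (100.3 kb). Just below it were a region without a gene on chromosome 7 (99.63 kb), a region with Tssc4, Trpm5 and Kcnq1 (99.88 kb) and a region with Fgf3, Fgf4, Fgf15 and LTO1 (99.88 kb). Regions on the X chromosome were not members, and 88 of 3066 there reached the same width.

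Most domains lay among further H2AK119ub regions. The flanks, 100 kb on each side, had a median of 72.2% of their bases under further H2AK119ub regions, against 17.6% over the autosomal span. The next H2AK119ub region began a median of 1.19 kb away, and 210 of the 312 domains had another domain within 1 Mb. With regions up to 5 kb apart joined, the widest stretch was chr9:43107579-44147216 (1039.6 kb, mm10), made of 15 regions. It held Pou2f3, a POU factor of keratinocyte differentiation, Trim29, a tripartite motif protein, and Cbl, a ubiquitin ligase of receptor tyrosine kinases. The Tle3 domain joined 5 neighbours into a stretch of 1030.3 kb.

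Chromosome 11 had the most domains for its length, 28.7 per 100 Mb (35 domains), followed by chromosome 4 with 22.4 per 100 Mb (35 domains) and chromosome 2 with 20.1 per 100 Mb (36 domains). Chromosome 18 had the fewest, 3.4 per 100 Mb (3 domains), and chromosome 3 had 4.5 per 100 Mb (7 domains). Gene density was not the same on these chromosomes, with 13.2 protein-coding genes per Mb on chromosome 11 and 5.8 on chromosome 18, but the 2 densities did not keep the same order: chromosome 19 had 12.2 genes per Mb and 10.3 domains per 100 Mb, and chromosome 4 had 8.5 genes per Mb.

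Most domains contained some H3K27me3, but less often over most of their width. Of the 312 domains, 104 (33.3%) had 50% or more of their bases under H3K27me3 regions, 167 (53.5%) had some but less than 50%, and 41 (13.1%) had none. Domains with any H3K27me3 came to 86.9%, beside 27.2% of all autosomal H2AK119ub regions, and those with 50% or more came to 33.3%, beside 17.3% of all autosomal H2AK119ub regions. A wider region has more bases in which a single overlapping base counts, so the share of summed bases was compared as well. H3K27me3 covered 34.8% of the bases of the domains, 27.4% of the bases of regions of 50 to 100 kb, 23.97% of those of 20 to 50 kb and 18.1% of those under 20 kb, against 6.18% of the autosomal span.

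**Figure D1:**
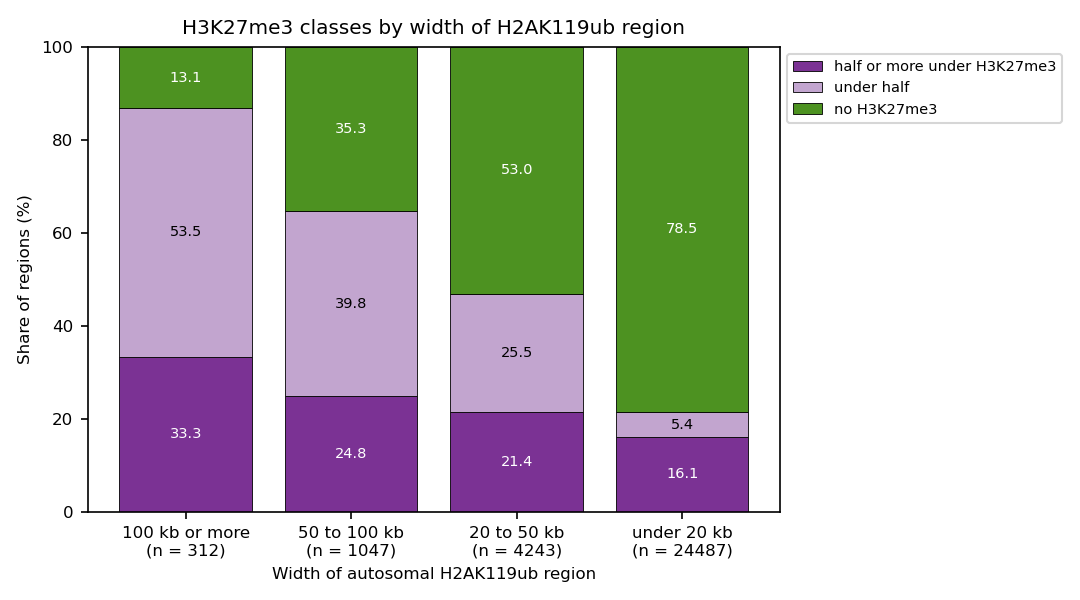
Share of autosomal H2AK119ub regions (%) by width, split into regions with 50% or more of their bases under H3K27me3, less than 50%, and none. The share with none was 13.1% for regions of 100 kb or more, 35.3% for 50 to 100 kb, 53.0% for 20 to 50 kb and 78.5% under 20 kb.

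The share of a domain under H3K27me3 was spread over the whole scale, with quartiles of 6.45%, 24.4% and 59.2%. At the low end, 25 domains had some H3K27me3 on less than 5% of their bases. At the high end, 19 had 90% or more and 3 were covered whole, among them the HoxD cluster and the domain of B4galt5, a galactosyltransferase. Near the boundary between the classes, 46 domains lay between 40 and 60%. Among the domains, the share did not go with width (Pearson r = 0.04, Spearman rho = 0.06, n = 312), nor with the number of protein-coding genes (r = -0.02, rho = 0.01). These are descriptions, since all domains come from the same libraries and caller.

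**Figure D2:**
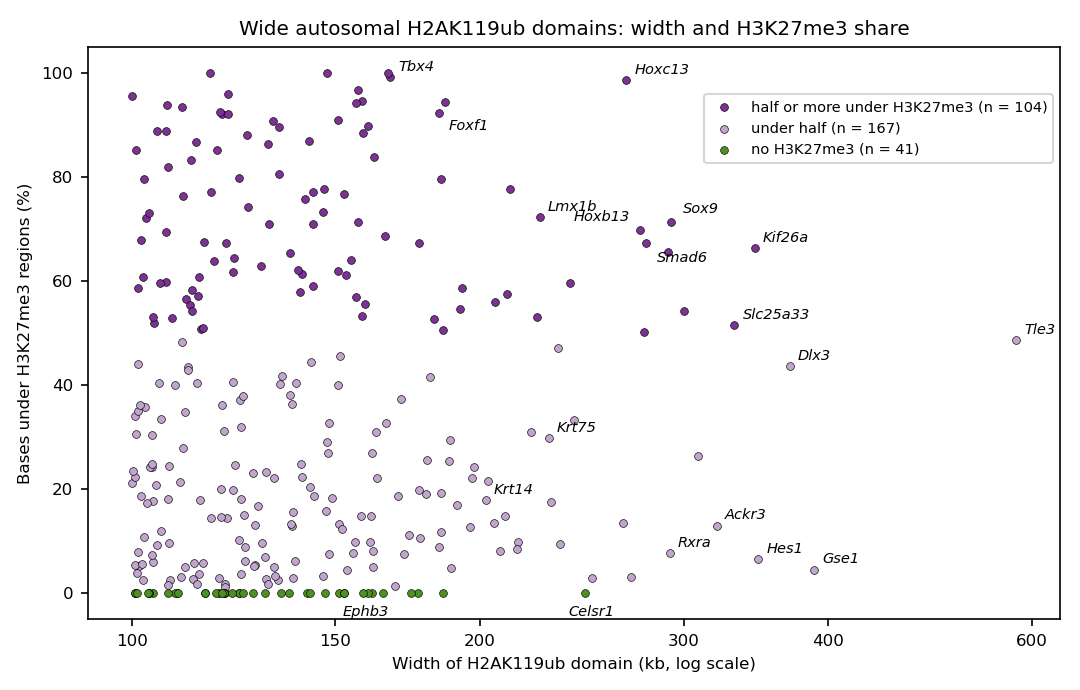
Width of each of the 312 domains (kb, log axis) against the percent of its bases under H3K27me3, coloured by class, with selected genes named. Tle3 (581.8 kb, 48.7%), Gse1 (389.1 kb, 4.52%) and Kif26a (345.7 kb, 66.4%) show that wide domains occur over most of the range of H3K27me3 share.

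In all, 952 H3K27me3 regions touched the domains, which is 7.35% of the 12952 autosomal H3K27me3 regions, and 845 of them lay wholly within a domain. They were wider than H3K27me3 regions at large, with a median of 10.7 kb against 7.69 kb over the autosomes. Few domains touched an H3K27me3 region of their own order of width. Of 50 autosomal H3K27me3 regions of 100 kb or more, 21 touched a domain, and 22 of the 312 domains touched one.

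The 104 domains with 50% or more under H3K27me3 spanned 15.86 Mb and held 239 protein-coding genes with an annotated end inside. Their median share was 71.0%, with quartiles of 59.5% and 86.7%. All 36 Hox genes in the domains, the factors of body axis identity, were in this class. The HoxB domain (275.2 kb) had 69.9% under H3K27me3, the HoxC domain with Hoxc13 to Hoxc6 (267.7 kb) 98.7%, its neighbour with Hoxc5 and Hoxc4 (193.2 kb) 58.7%, the HoxD domain (147.4 kb) 100% and the HoxA domain (142.3 kb) 86.8%.

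H3K27me3 did not cover the Hox genes evenly. Of the 36, 27 had 50% or more of the gene body under H3K27me3 and 7 had none. All 9 Hoxd genes were covered whole. In the HoxB domain, Hoxb13, Hoxb9, Hoxb8, Hoxb7, Hoxb6 and Hoxb1 had 50% or more, while Hoxb5, Hoxb4, Hoxb3 and Hoxb2 had no H3K27me3 on the gene body under the same unbroken H2AK119ub region. In the HoxA domain, Hoxa7 to Hoxa13 had 50% or more, and Hoxa5 and Hoxa6 had none. The remaining bare gene was Hoxc5. These genes were named after their values were seen.

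Several other regulators in this class had their bodies almost whole under H3K27me3. Sox9, a factor of hair follicle stem cells and cartilage, was the single gene of chr11:112761366-113053755 (292.4 kb, 71.4%), and 100% of its body was covered. Tbx4, a hindlimb factor (167.4 kb, 99.2%), and Foxf1, Foxc2 and Foxl1, forkhead factors of mesenchyme (184.2 kb, 92.3%), were likewise at 100%. So were Lhx2, a LIM homeobox factor of hair follicle stem cells (132.6 kb, 90.8%), Lhx1 of kidney and head development (156.2 kb, 94.2%) and Gata4 of heart and endoderm (100.8 kb, 85.1%). Pax7, the factor of muscle satellite cells (107.0 kb, 88.8%), had 98.9% of its body covered, and Lmx1b (225.3 kb, 72.3%) had 90.3%.

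The widest domain of this class was built otherwise. It was chr12:112074373-112420101 (345.7 kb, 66.4%), with Aspg, an asparaginase, Kif26a, a kinesin family member, and the microRNA gene Mir203. Of its Kif26a body 22.0% was under H3K27me3, and 74.9% of the domain's bases outside genes. The next was the domain of Slc25a33, a mitochondrial nucleotide carrier, Spsb1, an adaptor of a ubiquitin ligase, and H6pd (331.9 kb, 51.5%), which also held Mir34a. Then came the domain of Cbx2 and Cbx8, subunits through which canonical PRC1 binds H3K27me3 (300.5 kb, 54.3%). There, 49.9% of the Cbx8 body was covered, and Cbx2 had none, with the nearest H3K27me3 region 2.32 kb away.

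In the domain of Sulf2, a heparan sulfate sulfatase, and of one end of Ncoa3, a nuclear receptor coactivator (291.1 kb, 65.6%), 50.9% of Sulf2 and none of Ncoa3 was covered. Smad6 (278.5 kb, 67.4%) had 46.2% of its body covered, against 74.3% of the bases outside it. Trim29 (277.3 kb, 50.1%) had no H3K27me3 on its body, against 55.2% of the bases outside it, in 10 H3K27me3 regions. The last of the 10 widest held Piezo1, a mechanosensitive channel with none, and Cbfa2t3, a corepressor with 94.1% of its body covered (239.1 kb, 59.7%). There 50.7% of gene-body bases were covered, against 71.8% of bases outside genes, and in the HoxB domain 57.1% against 83.0%.

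The 167 domains with less than 50% under H3K27me3 were the largest class and included the 4 widest domains. They spanned 25.35 Mb, held 484 protein-coding genes and had a median share of 17.3%, with quartiles of 7.59% and 28.5%. The widest of all was chr9:61149570-61731348 (581.8 kb), with Tle3 as its single protein-coding gene. H3K27me3 covered 48.7% of this domain in 20 regions, one of 118.7 kb at one edge and the others of 1.92 to 17.4 kb. None touched Tle3 itself (chr9:61372326-61418497), and the nearest lay 3.83 kb from it.

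This class had 39 single-gene domains, and some others had the same bare gene with less H3K27me3 around it. Hes1, a repressor induced by Notch, was the single gene of chr16:29768912-30117259 (348.3 kb). H3K27me3 covered 6.55% of that domain in 4 regions and none of the gene, the nearest being 17.9 kb away. In the Rxra domain (291.9 kb) it covered 7.65% in 4 regions, none on the gene, the nearest 5.76 kb away. In the domain of Bmp7, a BMP ligand of epithelia (215.6 kb), it covered 9.75%, with the nearest 8.73 kb from the gene. A gene of this class with the reverse arrangement was Cyp26b1, which degrades retinoic acid (203.1 kb), with 21.5% of the domain but 96.3% of the gene body under H3K27me3. Both arrangements were common: of 140 domains of this class with at least 10 kb of each kind, the gene-body share was the lower in 87 and the higher in 53.

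Wider domains with several genes varied in the same way. The domain of Gse1 and Gins2, a subunit of the replicative helicase (389.1 kb), had 4.52% under H3K27me3, with 3.4% of the Gse1 body. One of 370.6 kb with 10 genes had 43.7%. In it Dlx3 and Dlx4, homeobox factors of epidermis and bone, had 100% of their bodies covered, Col1a1, the fibroblast collagen, 78.8%, and Itga3, the integrin of basal keratinocytes, 10.5%. Further domains among the 10 widest were those of Iqca and Ackr3, a scavenging chemokine receptor (320.5 kb, 13.0%), Pdgfa and Prkar1b (308.9 kb, 26.4%), Dab2ip, a Ras GTPase-activating protein, with Ttll11 (265.9 kb, 13.5%), and Cstad (249989 bp, 2.85%). Ackr3 had no H3K27me3 on the gene body.

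**Figure D3:**
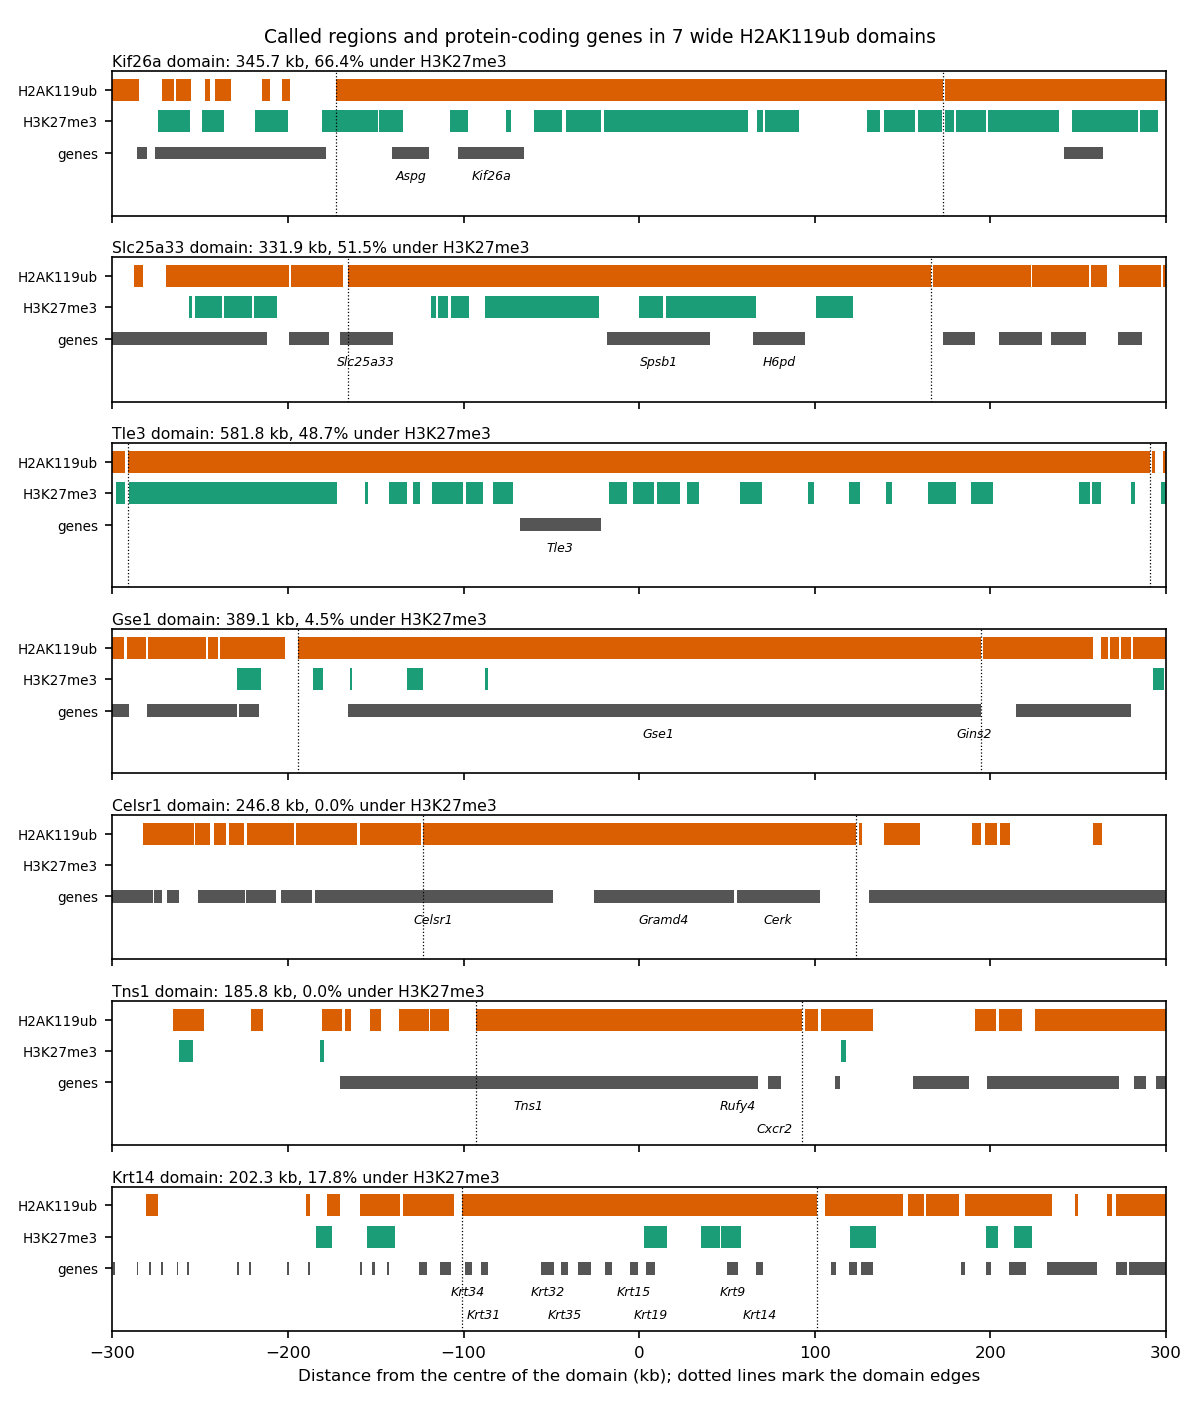
Called H2AK119ub regions, called H3K27me3 regions and protein-coding genes within 300 kb of the centre of 7 domains, with dotted lines at the domain edges. They are the 2 widest domains of each class and the Krt14 domain. H3K27me3 leaves Tle3 free in a domain with 48.7% under it, and is absent inside the Celsr1 and Tns1 domains.

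The 41 domains with no H3K27me3 spanned 5.44 Mb and held 86 protein-coding genes. The widest was chr15:85960163-86206961 (246.8 kb). It held one end of Celsr1, a cadherin of planar cell polarity that orients hair follicles, Gramd4, and Cerk, the ceramide kinase. Celsr1 lay 310.8 kb from the nearest H3K27me3 region. The following ones held one end of Tns1, a focal adhesion protein, with Rufy4 and Cxcr2 (185.8 kb), and Vav2, a guanine nucleotide exchange factor, with Brd3, a BET bromodomain protein (176.8 kb). Domains of 174.5 kb with Ranbp1 and 6 other genes, 161.2 kb with Mtfr1l, Selenon and Man1c1, 160.2 kb with Tpcn2 and Smim38, and 152.6 kb with Sgsm1 and 2 others were also among the 10 widest.

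This class had 5 genes of the axon guidance list and 1 each of the POU, basal epidermis and suprabasal epidermis lists. The lists of cytosolic ribosomal proteins, mitochondrial proteins, Tmem genes and ADAM proteases also had 1 gene each in it. Ephb3, a receptor for ephrin-B ligands, was the single gene of a domain of 158.5 kb and lay 130.0 kb from H3K27me3. Efna1, Efna3 and Efna4, ephrin-A ligands, shared a domain of 123.8 kb with 6 other genes. Pou2f3 lay in a domain of 152.7 kb, 63.6 kb from H3K27me3. Grhl3 lay in a domain of 136.8 kb, 141.2 kb from H3K27me3. A domain of 151.1 kb held Lad1, a protein of the basement membrane zone, with one end each of Pkp1, a desmosomal plakophilin, and Csrp1. Tns1 and Vav2, which reach beyond their domains, came within 9.32 kb of H3K27me3 for Tns1 and 3.09 kb for Vav2.

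The classes were close in width and surroundings. The median width was 138.2 kb for domains with 50% or more under H3K27me3, 132.8 kb for those with less and 123.8 kb for those with none. Annotated ends of protein-coding genes numbered 25.6 per Mb in the first, 32.9 in the second and 25.5 in the third. Gene bodies took up 39.1% of the bases in domains with 50% or more, 50.2% in those with less and 51.0% in those with none. The median share of the flanks under further H2AK119ub was 72.2%, 72.2% and 73.8% in the same order.

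Within the domains, H3K27me3 lay more often between genes than on them. It covered 29.0% of gene-body bases against 39.9% of bases outside protein-coding genes. In domains with 50% or more under H3K27me3 these were 64.3% and 76.6%, and in those with less 18.1% and 20.3%. The same order was found in other H2AK119ub regions, with 24.1% of gene-body bases and 30.9% of bases outside genes in regions of 50 to 100 kb. Of 217 domains with at least 10 kb of each kind, the gene-body share was the lower in 140, the higher in 75 and equal in 2.

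The H3K27me3 share also varied with distance from gene ends. In domains with 50% or more under H3K27me3, its share was 66.0% within 1 kb of a gene end and 77.7% at 50 to 100 kb. In domains with less, it was 26.0% within 1 kb of a gene end, 15.5% at 10 to 20 kb, 19.2% at 20 to 50 kb and 17.3% at 50 to 100 kb. Across the width of a domain, the mean share in the first class was 55.3% in the first of 10 equal parts, 84.4% in the seventh and 62.1% in the last. An unbroken H3K27me3 region over 50% or more of a domain must reach its middle, so the class definition may in part set this shape. In the second class the mean share stayed between 15.3% and 23.4% in all 10 parts.

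**Figure D4:**
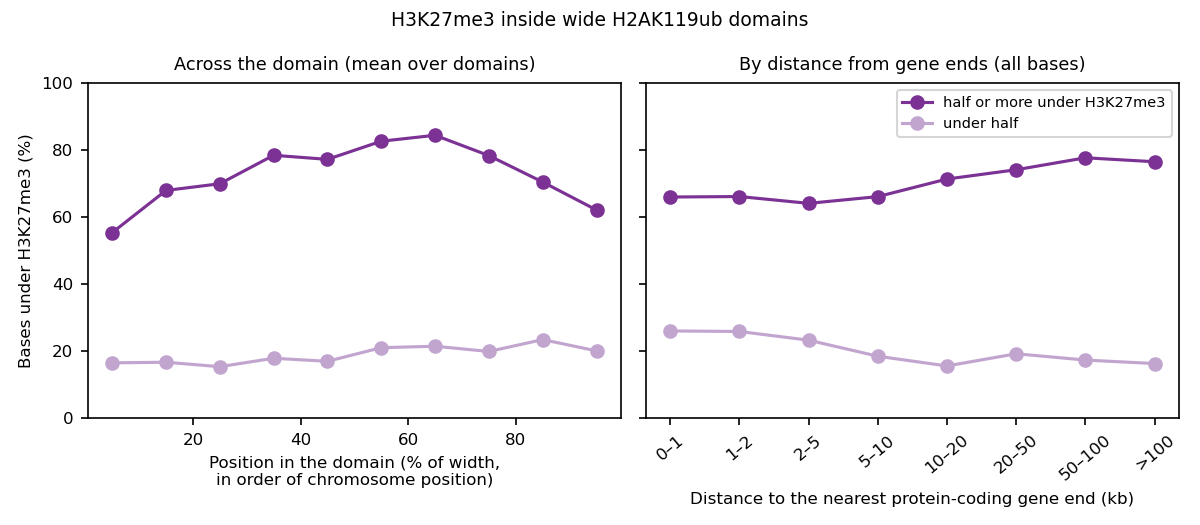
Percent of bases under H3K27me3 in domains with 50% or more (n = 104) and less than 50% (n = 167) of their bases under that mark, by position along the domain in 10 equal parts (left, mean over domains) and by distance to the nearest end of a protein-coding gene in kb (right, all bases). The class with 50% or more is highest at 84.4% inside the domain, which its definition may in part set. The other class stays at 15.3% to 26.0%.

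Many genes in the domains were free of H3K27me3. The domains held an annotated end of 803 of 20661 autosomal protein-coding genes (3.89%), 566 of them wholly inside a domain, with 9 having their ends in 2 domains. An end inside the domain lay under H3K27me3 for 330 of the 803 (41.1%), beside 32.8% of genes with an end in any autosomal H2AK119ub region and 34.4% for regions of 50 to 100 kb. By class it was 167 of 239 genes (69.9%) in domains with 50% or more, 164 of 484 (33.9%) in domains with less and 0 of 86 in those with none. With each gene counted in 1 domain, 60 of 235 gene bodies in the first class had no H3K27me3, 275 of 482 in the second and 84 of 86 in the third. For these bare genes the nearest H3K27me3 region was a median of 5.79 kb away in the first class, 17.2 kb in the second and 73.6 kb in the third. The classes are defined by the H3K27me3 share of the domain, so the 0 of 86 is fixed in advance. The order of the classes in these counts and distances largely follows from that definition too.

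The domains were not the most gene-dense H2AK119ub regions. They had 29.5 gene ends per Mb, against 36.2 in the other autosomal H2AK119ub regions and 17.0 over the autosomal span. The median was 2 genes per domain. There were 79 domains with 1 gene, 51 with 5 or more and 44 with none. The most genes, 12, were in the HoxB domain, followed by 11 in a domain of type II keratins. Among the domains with 10 genes were that of Krt14, that of Dlx3 and Itga3, one with Tlx2, Lbx2 and the PRC1 subunit Pcgf1 (101.3 kb, 44.1%), and one with Fgf17, an Fgf ligand, and Hr, the hairless corepressor of the hair cycle (152.1 kb, 12.4%).

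Of 57 gene lists, 12 had no gene in the domains. The lists together had 204 of 4365 genes (4.67%) in them, beside 3.89% of all autosomal protein-coding genes. Genes of 1 list often share a domain, so a list's count is not a count of independent loci. The Hox clusters had the highest share, 36 of 39 genes (92.3%) in 5 domains. Keratins followed among lists of 15 genes or more, with 28 of 53 (52.8%) in 3 domains, and genes of the hair follicle with 9 of 21 (42.9%) in 9 domains.

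**Figure D5:**
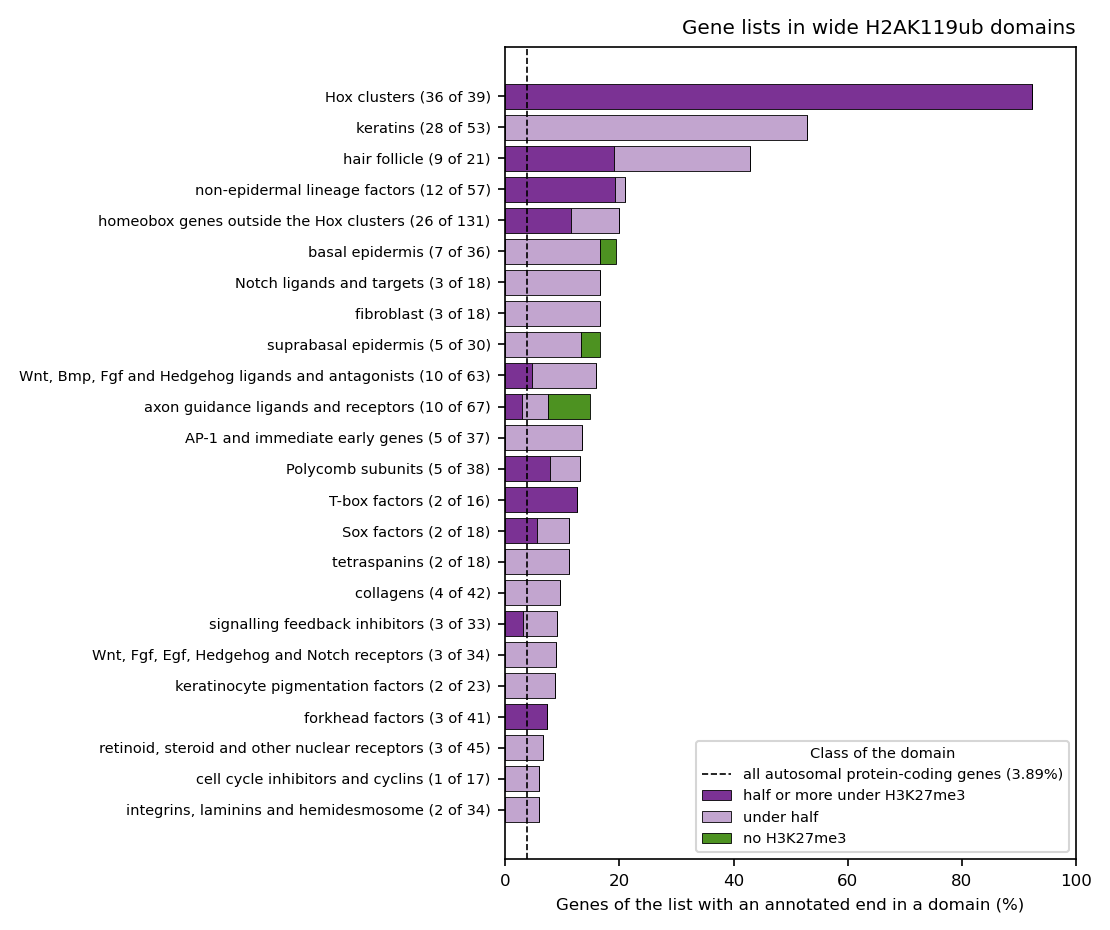
Percent of each gene list with an annotated end in a domain, for 24 lists of 15 genes or more, split by the H3K27me3 class of the domain. The dashed line is the 3.89% of all autosomal protein-coding genes, and the Hox clusters (92.3%), keratins (52.8%) and hair follicle genes (42.9%) are at the top.

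The keratins, the intermediate filaments of epithelia, were all in domains with less than 50% under H3K27me3. The type I domain was chr11:100035702-100237979 (202.3 kb, 17.8%) with 10 keratins. In it Krt9, the keratin of palm and sole, and Krt19 had 100% of their bodies under H3K27me3, and the other 8 had none, among them the basal keratins Krt14 and Krt15 and the hair keratins Krt31, Krt32, Krt34, Krt35 and Krt36. Krt14 was 8.24 kb and Krt15 3.60 kb from the nearest H3K27me3 region. The type II domain chr15:101347620-101576978 (229.4 kb, 29.9%) held 11 keratins. Of these Krt75, Krt81, Krt82, Krt86 and Krt90 had 50% or more of the body covered, and Krt80, Krt83, Krt84 and Krt88 had none. A second type II domain (137.2 kb, 13.4%) held the suprabasal keratins Krt1, Krt2 and Krt77, with none, and Krt76, with 100%. Krt5, the partner of Krt14, and Krt10, the partner of Krt1, had no end in a domain, and are named after their values were seen.

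No basal or suprabasal epidermis gene was in a domain with 50% or more under H3K27me3, a class with 239 of the 803 genes. Of 36 basal epidermis genes 7 had an end in a domain (19.4%), 6 in domains with less than 50% under H3K27me3 and Grhl3 in one with none. These were Dlx3, Itga3, Krt14, Krt15, Tfap2c, an AP-2 factor of epidermal commitment, Grhl3 and Plec, the cytolinker of hemidesmosomes. Of the 7, 3 had an end under H3K27me3, beside 41.1% of all 803 genes in the domains. Of 30 suprabasal genes 5 had an end in a domain (16.7%), Krt80, Pkp1, Krt1, Krt2 and Krt77, and none of these ends lay under H3K27me3. The hair follicle genes were split by class of domain, with Sox9, Hoxc13, Lhx2 and Tbx1 in domains with 50% or more and Krt75, Cux1, Gata3, Lgr6 and Tcf7l1 in domains with less. Of these 9, 8 had an end under H3K27me3, as did 17 of the 21 genes of the whole list.

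Factors of other lineages that were in the domains had 50% or more of the domain under H3K27me3, but for 1. Of 57 non-epidermal lineage factors 12 had an end in a domain (21.1%), 11 of them in this class, and all 12 had an end under H3K27me3. The widest were the domains of Lmx1b, Foxc2 and Foxf1, Tbx4 and Lhx1. The one in a domain with less was Neurog1, a factor of sensory neurons, whose body was 100% covered in a domain of 241.3 kb with 33.3% under H3K27me3. Across the whole list 55 of 57 had an end under H3K27me3, so most of these factors carried it outside very wide domains. Of 131 homeobox genes outside the Hox clusters 26 had an end in a domain (19.8%), 15 in the class with 50% or more and 11 in the class with less. Of these 26, 25 had an end under H3K27me3, as did 114 of the 131 genes of the whole list, so this was not particular to the domains. Among the 26 were Dlx3, Dlx4, Lmx1b, Meox1, a somite factor, Cdx1, an intestinal factor, Lhx1, Nkx2-3 and Dmbx1.

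Signalling genes in the domains are read beside all 803 genes there, of which 484 had an end in a domain with less than 50% under H3K27me3. Of 63 ligands and antagonists of the Wnt, Bmp, Fgf and Hedgehog pathways 10 had an end in a domain (15.9%). Bmp7, Wnt4, Wnt3a, Wnt9a, Wnt7b, Fgf17 and Wnt7a were in the class with less, and Wnt3a and Wnt9a shared a domain. Fgf1, Ihh, the Hedgehog ligand of cartilage and gut, and Sfrp5, a Wnt antagonist, were in the class with 50% or more. Wnt4 (188.7 kb, 4.81%), a ligand of epithelia, lay 106.4 kb from the nearest H3K27me3 region. Of 18 Notch ligands and targets 3 had an end in a domain (16.7%). They were Hes1, Lfng, the fringe that glycosylates Notch (127.8 kb, 5.42%), and Hes2 (134.3 kb, 40.2%). A domain of 161.7 kb with 5.03% held one end of the receptor gene Notch1. Of 33 feedback inhibitors 3 had an end in a domain (9.09%), Smad6 and the suppressors of cytokine signalling Socs3 (234.8 kb, 9.44%) and Socs1 (107.5 kb, 1.46%). An end lay under H3K27me3 for 0 of these 3, 2 of the 3 Notch ligands and targets and 8 of the 10 ligands and antagonists. Over the whole lists it was 7 of 33 feedback inhibitors, 10 of 18 Notch ligands and targets and 50 of 63 ligands and antagonists. The 8 of 10 is thus close to the share of its whole list. Among all 803 genes in the domains it was 41.1%, and 3 genes are too few to set against that share.

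Ends under H3K27me3 among the immediate early, axon guidance and nuclear receptor genes are read beside the 41.1% of all genes in the domains, 33.9% in the class with less than 50% and 0 in the class with none. Of 37 AP-1 and immediate early genes 5 had an end in a domain (13.5%), each in the class with less than 50%, among them Atf3, Egr3 and Nr4a1. Of the 5, 1 had an end under H3K27me3, Egr3. Of 67 axon guidance genes 10 had an end in a domain (14.9%). Ephb3, Sema4c, Efna1, Efna3 and Efna4 were in domains with none, Sema3b, Sema3f and Epha2 in domains with less than 50%, and Ephb2 and Ntng2 in domains with 50% or more. An end lay under H3K27me3 for 2 of the 10. Nuclear receptors had 3 of 45 genes in the domains (6.67%), Rxra, Ppard and Nr4a1, with 0 of the 3 having an end under H3K27me3.

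Polycomb genes were among the members. Of 38 subunit genes 5 had an end in a domain (13.2%), all 5 of them subunits of PRC1. Cbx2 and Cbx8 shared the domain of 300.5 kb described above. Cbx6 was in a domain of 109.1 kb with 39.95% under H3K27me3, and Pcgf1 in one of 101.3 kb with 44.1%. A domain without a gene end of 158.6 kb, with 88.4% under H3K27me3, lay 0.7 kb from Rybp, the subunit of variant PRC1.

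The lists of melanocyte genes (20), Merkel cell genes (18) and endothelial genes (15) had 0 members in the domains. At the 3.89% of all genes, fewer than 1 gene of each of these short lists would lie there, so their 0 is close to that share. All 18 Merkel cell genes had an end under H3K27me3 outside them. The olfactory receptors (1104), vomeronasal receptors (352), protocadherins (67) and Klf and Sp factors (28) had 0 as well. So did the epidermal families of late envelope and small proline-rich proteins (35), clade B serpins (28), kallikreins (26) and connexins (18). The lists of these epidermal families and of the Klf and Sp factors are short too, so their 0 is also close to the 3.89%. Zinc finger proteins named Zfp had 2 of 388 (0.52%). Among the defining markers of the sorted cells, Krt14 and Krt15 were in domains and the other 5 of 7 were not. So were 1 of 5 suprabasal keratinocyte (Krt1), 1 of 4 fibroblast (Col1a1) and 1 of 3 immune markers (Cd207), and no melanocyte, Merkel cell or endothelial marker. No end of the 7 basal markers lay under H3K27me3, against 2 of 5 suprabasal keratinocyte markers and 6 of 6 Merkel cell markers. It was 4 of 4 fibroblast markers, 2 of 3 immune markers, 1 of 6 melanocyte markers and 1 of 3 endothelial markers. Of all genes with an end in any autosomal H2AK119ub region, 32.8% had such an end under H3K27me3. These marker lists are too short to set against that share. The part of other cells in these values was not tested.

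Of 919 autosomal microRNA hairpins 58 (6.31%) were in the domains, spread over 46 of them. Under H3K27me3 were 13 of 20 hairpins in domains with 50% or more, 3 of 28 in those with less and 0 of 10 in those with none. Since H3K27me3 defines the classes, the 0 is fixed and the order largely follows. The mature sequences below are from RefSeq (GRCm38.p6), 5′ to 3′, with the seed, bases 2 to 8, in capitals. The first 4 are from the Hox domains and are shown because they form 2 seed families. Mir10a in HoxB and Mir10b in HoxD share a seed, and Mir196a-1 in HoxB, Mir196a-2 in HoxC and Mir196b in HoxA share another. All were under H3K27me3 but Mir10a, which lay 14.99 kb from it, in the stretch of bare Hoxb genes.
miR-10a-5p: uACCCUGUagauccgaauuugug
miR-10b-5p: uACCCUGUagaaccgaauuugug
miR-196a-5p: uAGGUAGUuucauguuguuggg
miR-196b-5p: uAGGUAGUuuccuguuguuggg
The next 4 are shown for their domains or for their part in the skin. The miR-203 gene lies in the widest domain with 50% or more under H3K27me3, 8.72 kb from the nearest H3K27me3 region, and its product restrains p63 as keratinocytes leave the basal layer. The miR-34a gene, a p53 target, lies 32.0 kb from H3K27me3 in the second widest domain of that class. The genes of miR-193a and miR-365 share a domain of 118.2 kb with no H3K27me3, 118.1 kb from it for miR-193a and 132.5 kb for miR-365. No 2 of these 4 shared a seed.
miR-203-3p: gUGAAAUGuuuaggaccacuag
miR-34a-5p: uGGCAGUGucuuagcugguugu
miR-193a-3p: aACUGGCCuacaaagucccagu
miR-365-3p: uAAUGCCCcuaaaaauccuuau
Long noncoding RNA genes had an end in a domain for 664 of 12408 (5.35%).

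Without any end of a protein-coding gene were 44 domains, of which 18 had 50% or more under H3K27me3, 15 had less and 11 had none. Of these 44, 14 lay inside a larger gene. They included a domain inside Skap1, next to HoxB (166.7 kb, 100%), one inside Zfhx3, a homeodomain zinc finger factor (156.9 kb, 96.6%), one inside Camta1 (159.1 kb, 55.6%) and one inside Dscaml1 (153.3 kb, 61.2%). The other 30 lay between genes, a median of 53.8 kb from the nearest one and up to 255.9 kb. The widest were near Zfp703 (171.8 kb, 7.53%), Mylip (164.9 kb, none) and Uaca (160.2 kb, 89.8%). The domain near Uaca lay 1.94 kb from the Tle3 domain. Others lay 116.1 kb from Foxl1 (158.2 kb, 94.6%), 85.5 kb from Irx3 (150.8 kb, 91.0%) and 0.7 kb from Rybp, which is described above.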

How the data were processed

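Region lists from chromatin immunoprecipitation with single-read sequencing were used, 1 list for each of 2 marks. The mouse libraries behind them were 2 for H2AK119ub, 2 for H3K27me3 and 1 input. Each deposited list holds the position of every region, as a chromosome with a start and an end, per the file headers. The submitters' processing notes name the build mm10, Bowtie2 2.3.3.1 and SAMtools 1.9 but not what each was used for. How regions were called, at which thresholds, against the input or not, and from pooled or single libraries is not given in the sources used here, and each of these can change where a wide region is split. Without read depth, no interval or floor is given, and bases outside called regions may carry either mark at a lower level.

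The first position of a region was taken as start plus 1, as in a BED file. Domains were autosomal H2AK119ub regions with end minus start of at least 100000 bp. Their H3K27me3 share was the percent of bases under H3K27me3 regions, with an overlap from 1 bp. Domains were classed as none (0 bp), less than 50%, or 50% or more. Gene positions are from RefSeq on GRCm38.p6, of which mm10 is the UCSC name. A gene counted with either annotated end in a domain. Of 874 symbols in 24 symbol lists 7 had no row, and 33 further lists were name patterns. Promoter sequences were found for 593 of the 803 genes in domains (73.8%), under the minimum of 80%, so the planned comparison of CpG content between classes was void and was not made.

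The members and lists were chosen with earlier results of these data known. Named were the 10 widest domains of each class, the 5 with the most genes, domains without a gene, the widest of each autosome (a few genes this names are not reported here) and, for each list, up to 8 members by domain width. Keratins and Hox genes are named beyond 8 where a domain is described gene by gene. Correlations are descriptions. Overlaps were tested on simulated data, where 20 lists differed from a recount base by base by 0 bp. Python 3.11.15, numpy 2.4.6, pandas 2.3.3, scipy 1.17.1 and matplotlib 3.10.9 were used.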

Additional observations from a re-analysis of the deposited data

How the results depend on the processing

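The H3K27me3 classes and gene counts depend on where wide regions begin and end, which the unknown caller sets. With a minimum of 80 kb there were 512 domains, 105 without H3K27me3 and 252 with less than 50%. With a minimum of 150 kb there were 111 domains, 11 without, 59 with less than 50% and 41 with 50% or more, holding 333 genes and 105 genes of the lists. With H2AK119ub regions up to 5 kb apart joined there were 890 domains, 167 without and 574 with less than 50%, a median share of 14.3%, 3329 genes and 637 genes of the lists. Domains without H3K27me3 were 63 when H3K27me3 regions under 5 kb were left out and 66 when less than 5% counted as none. Domains mostly covered were 34 when 80% or more was required. These changes follow from the construction of each alternative. The other alternatives for these results (joined H3K27me3 regions, starts counted from 1, genes wholly inside, genes with any base inside) left the counts within 1.5 times. Of the 57 lists, 31 moved beyond 1.5 times at 150 kb (0 higher), 50 with joined regions (0 lower) and 13 with genes wholly inside (0 higher). Alternatives on the lists at 80 kb, for starts counted from 1 and for any base inside, and all those on gene bodies against bases outside genes, were chosen after seeing the data. The planned comparison of promoter CpG content was not run. No paired analysis was possible because each mark has 1 list, not assigned to a library, and no result comes from a test. For the same reason no library could be left out in turn.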
